A study of Mus musculus with 24 samples.

Results

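Polycomb repressive complex 2 (PRC2) was described here through 10 genes chosen by symbol: the catalytic subunits Ezh2 and Ezh1, the core subunits Eed and Suz12, the accessory subunits Jarid2, Mtf2, Phf19 and Phf1, and the histone-binding subunits Rbbp4 and Rbbp7. All 10 were present among the 21878 gene symbols counted, and all 10 passed the filter on low counts that left 13121 genes for testing. Poly(A) RNA had been sequenced from suspended cells of 21 lymphomas of the thymus and from thymocytes of 3 normal thymus samples, all from female mice of the B6C3F1 hybrid. The treatment label, carried by the lymphomas and the thymus samples alike, gives weekly whole-body carbon ions, 4 doses of 1.6 Gy, the first at an age of 4 to 5 weeks. Whether the normal thymus was in fact irradiated is not clear from the labels, so lymphomas and thymus may differ in irradiation as well as in disease. The design text asks which genes go with mutation of Ikzf1 (the gene of Ikaros, a regulator of lymphoid development), so the groups were 11 lymphomas with an Ikzf1 mutation, 10 lymphomas without one, and thymus. These sets come from the columns of the authors' filtered tables. The title mark 7W of the thymus samples is not explained in the labels, and no label says whether each lymphoma came from an animal of its own: the p-values then refer only to the spread among the samples, which may be technical.

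PRC2 places methyl groups on a lysine in the tail of histone H3, a mark that keeps developmental and lineage genes silent. Ezh2 or Ezh1 supplies the catalytic domain, and Eed and Suz12 are needed for activity. Ezh2 is known for its high level in dividing cells and Ezh1 for its presence in resting ones. Mtf2, Phf19 and Phf1 are the Polycomb-like proteins, alternative partners that bring the core to chromatin, while Jarid2 belongs to the other class of PRC2 assembly. In the thymus, loss of PRC2 subunits is known both to disturb T-cell development and to favour T-cell leukaemia.

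The start regions of 4 of these genes are shown because the results turn on the pair Ezh2 and Ezh1 and on the Polycomb-like genes. Each line is the 250 bases before 1 transcript start of the gene in the RefSeq table (build GRCm38.p6), on the strand of the gene, with any match to the E2F-type motif TTTNNCGC in capitals, in either orientation and overlaps allowed. For Ezh1 and Phf1 that start is the outer end of the gene. For Ezh2 and Phf19 it lies further in, so the stretch shown falls largely (Ezh2) or wholly (Phf19) inside the span of the gene given with its values, and the letters and counts below refer to that start only.
Ezh2, chr6:47595031-47595280, minus strand: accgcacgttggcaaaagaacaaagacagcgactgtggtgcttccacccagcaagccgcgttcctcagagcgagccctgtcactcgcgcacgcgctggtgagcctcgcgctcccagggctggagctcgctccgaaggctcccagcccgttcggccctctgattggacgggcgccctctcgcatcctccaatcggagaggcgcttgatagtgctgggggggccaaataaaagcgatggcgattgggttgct
Ezh1, chr11:101226464-101226713, minus strand: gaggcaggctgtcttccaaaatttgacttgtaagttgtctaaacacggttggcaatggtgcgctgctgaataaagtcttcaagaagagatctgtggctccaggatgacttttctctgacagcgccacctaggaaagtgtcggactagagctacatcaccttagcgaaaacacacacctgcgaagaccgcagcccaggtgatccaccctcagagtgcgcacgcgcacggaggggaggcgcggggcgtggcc
Phf1, chr17:26932877-26933126, plus strand: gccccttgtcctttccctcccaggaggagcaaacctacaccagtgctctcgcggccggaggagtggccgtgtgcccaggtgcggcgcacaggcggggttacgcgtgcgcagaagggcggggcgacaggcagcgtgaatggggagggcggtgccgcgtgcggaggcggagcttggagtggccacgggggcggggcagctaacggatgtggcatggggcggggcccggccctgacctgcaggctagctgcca
Phf19, chr2:34913977-34914226, minus strand: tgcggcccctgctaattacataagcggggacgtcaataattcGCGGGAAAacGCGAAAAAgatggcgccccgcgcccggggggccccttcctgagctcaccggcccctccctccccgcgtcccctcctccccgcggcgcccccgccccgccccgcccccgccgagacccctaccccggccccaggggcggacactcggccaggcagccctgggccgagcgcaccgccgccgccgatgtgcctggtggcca
The motif stood at 2 places before Phf19 and at 1 place before Suz12, and at none before Ezh2, Ezh1 or Phf1. Among 32851 RefSeq start regions of this length, 4.28% held it. A match describes letters only, and no match says nothing about any factor. The Ezh1 region held 14 CpG pairs, against 23 in the Ezh2 region, 23 in the Phf1 region and 31 in the Phf19 region. The median over all start regions was 6.

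Libraries held 14998988 to 36559710 counts in lymphomas and 24543936 to 27544876 in thymus, and the lowest count of any PRC2 gene in a library was 193. Levels are CPM scaled by the TMM method (scaled CPM, each count as a share of its library's total) for comparing libraries, and the authors' TPM, which divides by transcript length, for comparing genes. In lymphomas against thymus, 15.4% of all tested genes were higher and 15.4% lower. Of 10 T-cell markers, 7 were lower in lymphomas. Their summed level was 3567 to 6047 scaled CPM in lymphomas, against 7566 to 9099 in thymus, and every marker had at least 10 counts in every library. Of 10 macrophage markers 9 were higher in lymphomas (190 to 823 scaled CPM summed, against 98.8 to 138 in thymus), and so were 8 of 9 fibroblast markers (59.3 to 1297, against 12.2 to 16.2). All 8 tested thymic epithelial markers and all 7 neutrophil markers were lower, and none of 6 B-cell markers passed. In such bulk samples, fewer cells of a type and less RNA per cell cannot be told apart, and the part of these markers in the PRC2 results was not tested. Lymphoma 7, of the mutated set, stood apart, with the lowest mean level of mitosis genes (6.28 as mean log2, against a lymphoma median of 7.31). Results of the PRC2 genes that rest on it are therefore given with and without it.

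By TPM, the order of the PRC2 genes in lymphomas was Rbbp7, Ezh2, Suz12, Rbbp4, Eed, Mtf2, Jarid2, Phf1, Ezh1 and Phf19, with medians of 495, 270, 192, 154, 83.9, 58.2, 33.8, 30.9, 27.6 and 19.7 TPM. Near the top of that order the steps held in most libraries: Rbbp7 was above Ezh2 in 21 of 21 lymphomas, Ezh2 above Suz12 in 20, Suz12 above Rbbp4 in 18 and Rbbp4 above Eed in 21. Further down the neighbours overlapped, with Eed above Mtf2 in 14 lymphomas, Mtf2 above Jarid2 in 17, Jarid2 above Phf1 in 14, Phf1 above Ezh1 in 15 and Ezh1 above Phf19 in 16. In thymus the first 4 genes were the same, at medians of 384, 363, 197 and 175 TPM. Phf1 came next there, at a median of 99.7 TPM and above Eed in 3 of 3 libraries.

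Against thymus, 2 of the 10 genes passed an adjusted p of 0.05 and both were lower in lymphomas: Phf1 and Ezh1. Over all tested genes 30.8% were called in this comparison, so 2 of 10 is no larger a share than the background. The median log2 fold change was -0.20 over the 10 genes and 0.07 over all tested genes. None of the 10 had lymphoma and thymus ranges that did not overlap, which was so for 14.3% of all tested genes. That count rests on lymphoma 7: without it the ranges of Phf1 and Ezh1 did not overlap those of thymus, 2 of 10 genes, against 17.3% of all tested genes. In the mutated set 1 gene passed against thymus (Phf1, with 26% of all genes called), and in the unmutated set 3 passed (Phf1, Ezh1 and Jarid2, with 35.4% called). These comparisons share the 3 thymus libraries. The summed T-cell markers were lower in every lymphoma than in any thymus library, the direction of the Phf1 and Ezh1 calls. Lymphoma 7 was an exception to this parallel. Its T-cell markers summed to 5292 scaled CPM, while its Phf1 (107) and Ezh1 (88.2) were not below thymus. The part of these markers in the calls was not tested.

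**Figure D1:**
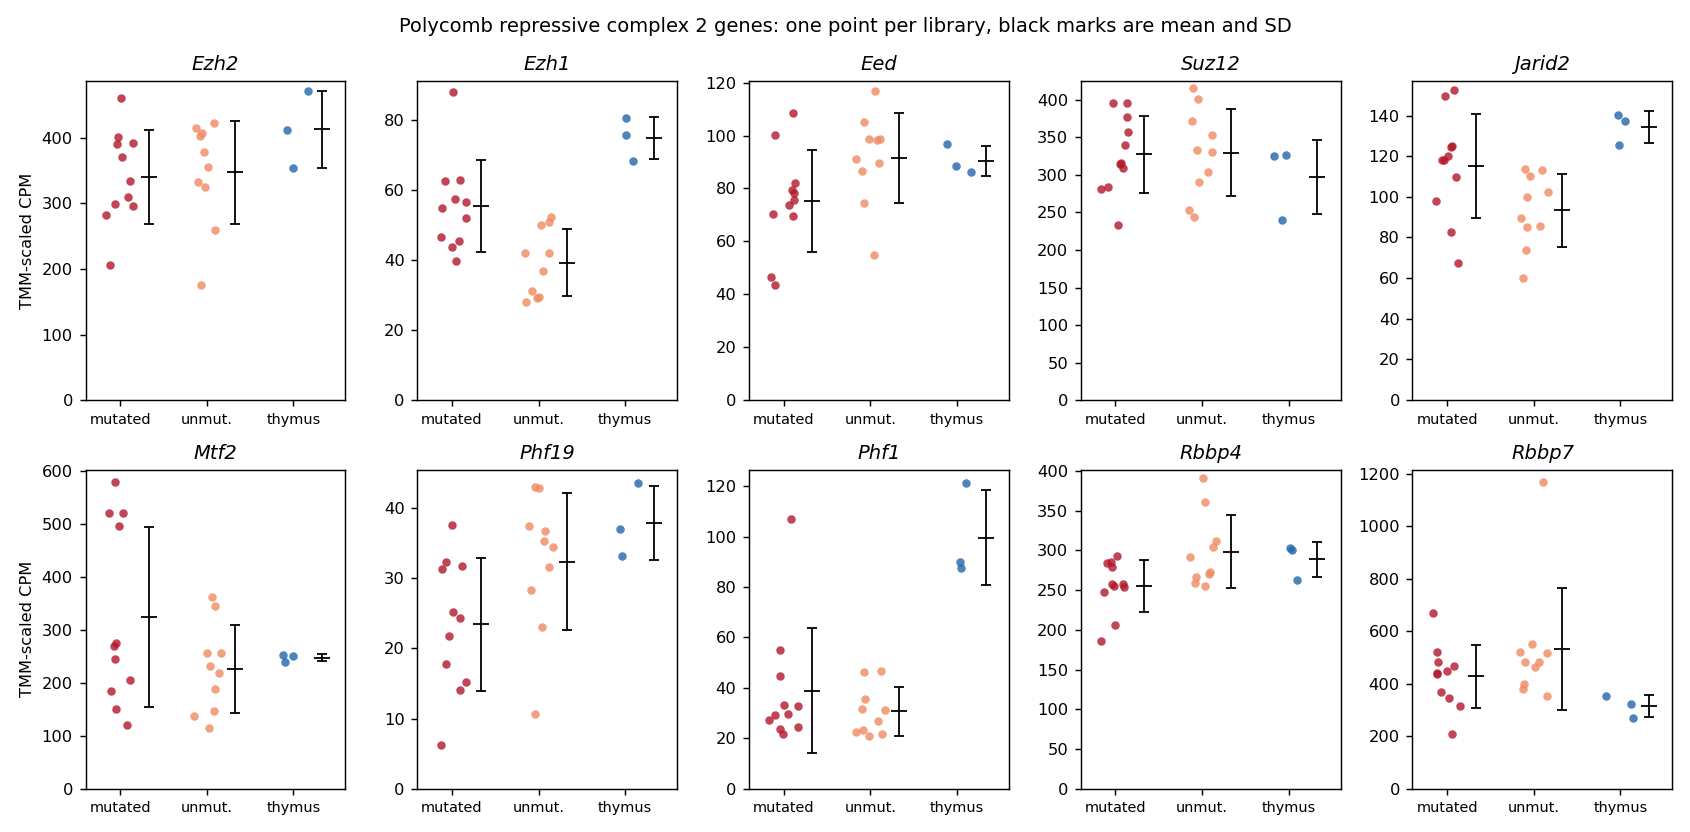
Level of each PRC2 gene as TMM-scaled CPM (vertical axis from 0) in every library, by group (11 mutated lymphomas, 10 unmutated lymphomas, 3 thymus libraries). Points are libraries and black marks are mean and SD. Phf1 lay between 21.1 and 55.1 in every lymphoma other than the one at 107, below the thymus libraries at 87.6 to 121, while Ezh2, Suz12 and Rbbp4 overlapped between groups.

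Ezh2, the main catalytic subunit of dividing cells (chr6:47530274-47595270, minus strand), had 176 scaled CPM in the lowest lymphoma, a median of 355 and 461 in the highest, against 412, 355 and 472 in thymus 1, 2 and 3. Most values overlapped: 11 lymphomas lay inside the thymus range, 10 below it and none above. Its mean was 344 ± 73 scaled CPM in lymphomas (SD, n = 21) and 413 ± 59 in thymus (SD, n = 3), a log2 fold change of -0.26 (SE 0.19, adjusted p = 0.301, edgeR quasi-likelihood). The approximate 95% interval of that difference ran from -0.64 to 0.11. The lowest libraries were lymphoma 21 (176), of the unmutated set, and lymphoma 7 (206).

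Ezh1, the paralogue with weaker enzymatic activity that persists in resting cells (chr11:101191115-101226463, minus strand), was lower in lymphomas. It had 28.2 scaled CPM in the lowest lymphoma, a median of 46.7 and 88.2 in the highest, against 75.8, 80.5 and 68.4 in thymus 1, 2 and 3. Lymphoma 7 was the only one above the thymus libraries, and the other 20 lay below all of them. The log2 fold change was -0.65 (SE 0.23, adjusted p = 0.032, edgeR). Without lymphoma 7 it was -0.71 (adjusted p = 0.0079). The call was lost on leaving out any 1 of the 3 thymus libraries (log2 fold change -0.68 to -0.58, adjusted p 0.077 to 0.151) and with no filter on low counts (-0.61, adjusted p = 0.052).

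The TPM ratio of Ezh2 to Ezh1 had a median of 10.4 in lymphomas (3.19 to 17.6), against 6.01 to 9.42 in thymus. It was 8.21 to 17.6 in the unmutated set and 3.19 to 12.7 in the mutated set, so both sets overlapped the thymus range. The lowest ratio was that of lymphoma 7 and the highest that of lymphoma 34.

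The core subunits Eed and Suz12 did not pass in any of the 3 comparisons with thymus. Eed, which binds the histone mark and stimulates the enzyme (chr7:89954654-89980976), ranged from 43.4 to 117 scaled CPM in lymphomas with a median of 82.1, against 86.1, 96.9 and 88.6 in thymus 1, 2 and 3. The log2 fold change was -0.13 (SE 0.21, adjusted p = 0.677, edgeR). Its low values belonged to lymphoma 10 (43.4), lymphoma 14 (46.5) and lymphoma 34 (55). Suz12, which holds the complex together (chr11:79993106-80034123), ranged from 234 to 416 scaled CPM with a median of 331, against 325, 241 and 327 in thymus. Its log2 fold change was 0.14 (SE 0.15, adjusted p = 0.488), with 11 lymphomas above the thymus range, 9 inside it and 1 below.

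The Polycomb-like genes moved unequally. Phf1 (chr17:26933127-26937908, plus strand) gave the largest difference of the 10 genes. It had 21.1 scaled CPM in the lowest lymphoma (number 20), a median of 29.5 and 107 in the highest (lymphoma 7), against 89.8, 121 and 87.6 in thymus 1, 2 and 3. All lymphomas other than number 7 lay below every thymus library, the next highest being lymphoma 12 at 55.1. The means were 35 ± 19 scaled CPM in lymphomas (SD, n = 21) and 99.5 ± 18.8 in thymus (SD, n = 3). That is a log2 fold change of -1.51 (SE 0.31, adjusted p = 0.0010, edgeR), or 2.84-fold lower. Without lymphoma 7 the log2 fold change was -1.66 (adjusted p = 7.2e-06), and leaving out any 1 thymus library kept the call (adjusted p 0.0052 to 0.020). The fall was past the threshold in the mutated set (-1.35, SE 0.34, adjusted p = 0.0057) and in the unmutated set (-1.70, SE 0.34, adjusted p = 0.0007). In the mutated set the call was lost without thymus 2 (-1.18, adjusted p = 0.058).

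Phf1 shares 4090 bases with Cuta on the opposite strand, and the strand setting of the counting was not given in the sources used. Cuta had 87.9 ± 21.8 scaled CPM in lymphomas (SD, n = 21) and 89.2 ± 15.7 in thymus (SD, n = 3), a log2 fold change of -0.02 (SE 0.19, adjusted p = 0.946, edgeR). The overlapping gene thus showed no fall of the size seen for Phf1, although reads in the overlap cannot be assigned.

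Mtf2 (chr5:108065660-108109219, plus strand) varied widely among lymphomas. It ranged from 115 (lymphoma 18) to 578 scaled CPM (lymphoma 16) with a median of 244, against 250, 239 and 251 in thymus 1, 2 and 3. The thymus libraries stood close together in the middle of the lymphomas, of which 10 were above them, 10 below and 1 inside. Its coefficient of variation was 51.1% in lymphomas, and 54.4% was that of Phf1. Without lymphoma 7 these were 49.3% for Mtf2 and 31% for Phf1. For comparison, 1125 of 8907 genes with a mean of at least 10 scaled CPM varied as much as Mtf2 or more, and the median gene had 22.7%. The log2 fold change was 0.17 (SE 0.40, adjusted p = 0.786, edgeR). Lymphomas 16, 2, 13 and 10, all of the mutated set, had 578, 521, 520 and 495 scaled CPM, and the next was lymphoma 32 at 362. Tmed5, which overlaps Mtf2 by 2639 bases on the opposite strand, was also at its highest in lymphomas 16 and 10 (594 and 560 scaled CPM, against 133 to 152 in thymus), followed by lymphoma 13, with lymphoma 2 at 320.

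Phf19 (chr2:34893752-34914353, minus strand) was the least abundant of the 3 by TPM. It had 6.21 scaled CPM in lymphoma 17, a median of 31.4 and 43 in lymphoma 30, against 37, 33.2 and 43.6 in thymus 1, 2 and 3. In 14 lymphomas it lay below the thymus range and in none above, with a log2 fold change of -0.46 (SE 0.35, adjusted p = 0.338, edgeR). The values of lymphomas 17 (6.21) and 20 (10.6) stood below the rest, which began at 14.1.

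Summed over the 3 Polycomb-like genes, TPM had a median of 116 in lymphomas (77.6 to 193), against 192 to 210 in thymus. Phf1 made up a median of 26.7% of that sum in lymphomas (11.6 to 72%), against 49.1 to 59.9% in thymus, and Mtf2 56.2% in lymphomas (20.4 to 79.6%), against 29.7 to 35.6% in thymus. Phf1 exceeded Mtf2 in all 3 thymus libraries and in 4 lymphomas, numbers 7, 12, 18 and 35. These shares follow from the levels above, with the limit that Phf1 and Mtf2 overlap Cuta and Tmed5, and were not tested.

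**Figure D2:**
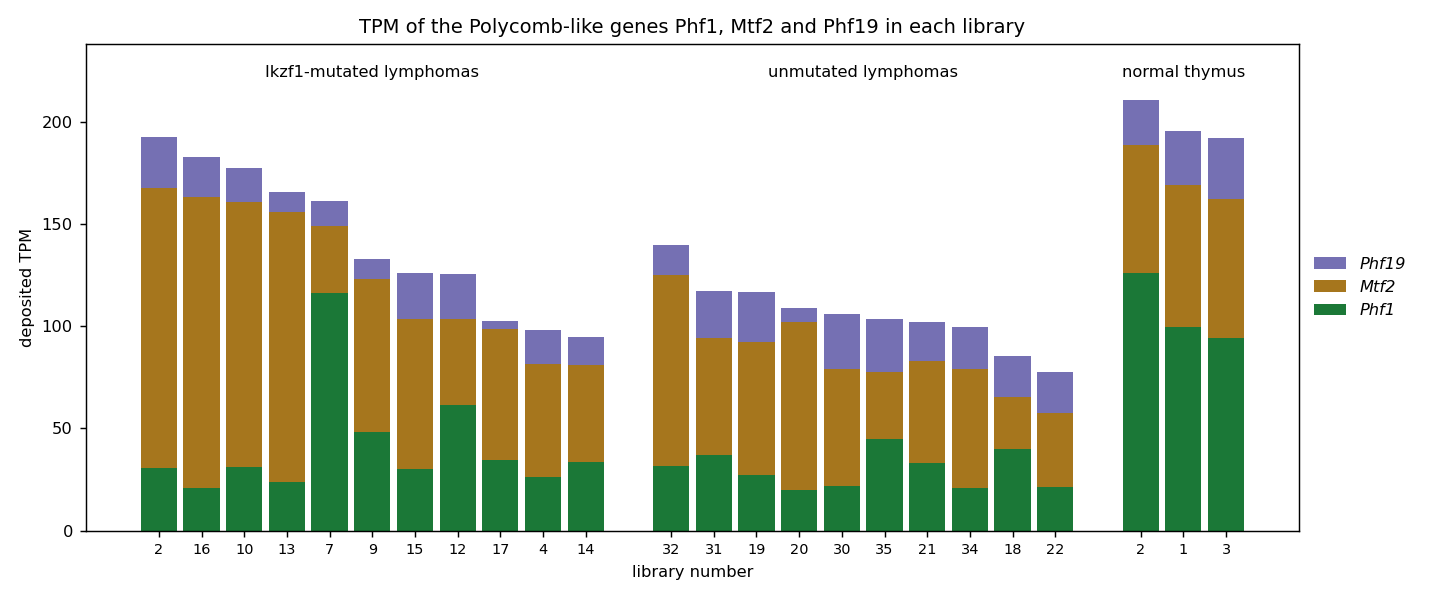
Deposited TPM of Phf1, Mtf2 and Phf19, stacked for each library, with libraries ordered by their sum within mutated lymphomas, unmutated lymphomas and thymus. The Phf1 segment is the largest in the 3 thymus libraries (49.1 to 59.9% of the sum) and 11.6 to 72% in lymphomas, where it exceeds the Mtf2 segment in lymphomas 7, 12, 18 and 35 (72, 48.9, 46.9 and 43.1%).

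Jarid2, an accessory subunit that helps to place PRC2 on its targets (chr13:44730774-44921643), ranged from 59.8 (lymphoma 34) to 152 scaled CPM (lymphoma 9) with a median of 110, against 140, 138 and 125 in thymus 1, 2 and 3. It was below the thymus range in 19 lymphomas, including all 10 of the unmutated set, and above it in 2, numbers 9 and 12. Over all lymphomas the log2 fold change was -0.36 (SE 0.19, adjusted p = 0.158, edgeR). In the mutated set it was -0.22 (SE 0.19, adjusted p = 0.402), and the difference between the sets did not pass (0.30, adjusted p = 0.156). In the unmutated set it passed, at 93.3 ± 17.8 scaled CPM (SD, n = 10), against 134 ± 8 in thymus (SD, n = 3). The log2 fold change there was -0.53 (SE 0.19, adjusted p = 0.032). Leaving out any 1 thymus library ended that call (adjusted p 0.071 to 0.127), and so did testing with no filter on low counts (adjusted p = 0.052).

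Rbbp4 and Rbbp7 bind histones in PRC2 and also in the NuRD, Sin3 and CAF-1 complexes. Rbbp7 (chrX:162760372-162779090) had 208 scaled CPM in the lowest lymphoma (number 7), a median of 465 and 1166 in the highest (lymphoma 34), against 321, 269 and 353 in thymus 1, 2 and 3. In 18 of 21 lymphomas, including all 10 unmutated ones, it was above the thymus range. The difference did not pass over all lymphomas (log2 fold change 0.60, SE 0.29, adjusted p = 0.121, edgeR) or in the unmutated set (0.76, SE 0.30, adjusted p = 0.053). In the unmutated set it passed in 2 of 9 other settings, DESeq2 (0.77, adjusted p = 0.032) and upper-quartile scaling (0.78, adjusted p = 0.043). The highest adjusted p in those settings was 0.127. It passed in 6 of the 21 fits that left out 1 lymphoma, those without lymphoma 2, 7, 18, 20, 31 or 35 (adjusted p 0.033 to 0.049). Without lymphoma 34 it was 0.56 (adjusted p = 0.058). In none of the 3 fits that left out 1 thymus library did it pass (0.67 to 0.88, adjusted p 0.085 to 0.193). Rbbp4 (chr4:129307100-129335370) ranged from 186 to 391 scaled CPM with a median of 270, against 263, 303 and 300 in thymus, and did not pass (-0.07, SE 0.14, adjusted p = 0.748).

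Between the 2 sets of lymphomas, 1 of the 10 genes passed, and 5.38% of all tested genes did (2.43% higher and 2.95% lower in the mutated set). Ezh1 was higher in mutated than in unmutated lymphomas, with 55.5 ± 13.2 scaled CPM in the mutated set (SD, n = 11) and 39.3 ± 9.6 in the unmutated set (SD, n = 10). The mutated set ran from 39.8 to 88.2 with a median of 55, the unmutated set from 28.2 to 52.4 with a median of 39.5, so the ranges overlapped. The log2 fold change was 0.50 (SE 0.14, adjusted p = 0.039, edgeR). Relative to thymus, Ezh1 was -0.43 in the mutated set (SE 0.20, adjusted p = 0.114, or -0.52 with adjusted p = 0.034 without lymphoma 7) and -0.93 in the unmutated set (SE 0.20, adjusted p = 0.0011). The call between the sets was close to the threshold: it was lost in 13 of the 21 fits that left out 1 lymphoma, among them the fit without lymphoma 7 (0.42, adjusted p = 0.061), and with limma-voom (0.48, adjusted p = 0.050). In those 13 fits the log2 fold change was 0.42 to 0.51.

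The other 9 genes did not pass between the sets. The largest estimates were those of Mtf2 (0.52, SE 0.27, adjusted p = 0.247, edgeR), Phf19 (-0.46, SE 0.25, adjusted p = 0.260) and Phf1 (0.34, SE 0.25, adjusted p = 0.419). For Phf1 the estimate was 0.08 without lymphoma 7 (adjusted p = 0.842). Jarid2 was at 0.30 (SE 0.13, adjusted p = 0.156), Eed at -0.28 (SE 0.14, adjusted p = 0.224) and Rbbp4 at -0.23 (SE 0.09, adjusted p = 0.124). Ezh2 and Suz12 were at -0.03 and -0.01, with approximate 95% intervals of -0.30 to 0.24 and -0.22 to 0.20. Of 26 mitosis genes, 5 were lower in the mutated set and none higher, where 2.95% of all tested genes were lower and 2.43% higher. The count was 3 lower with no filter on low counts and 1 with limma on TPM. It is not given without lymphoma 7, which is in the mutated set and had the lowest mean level of mitosis genes. The lower level of mitosis genes ran opposite to the difference in Ezh1, which was higher in the mutated set. Its part in the Ezh1 difference was not tested.

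**Figure D3:**
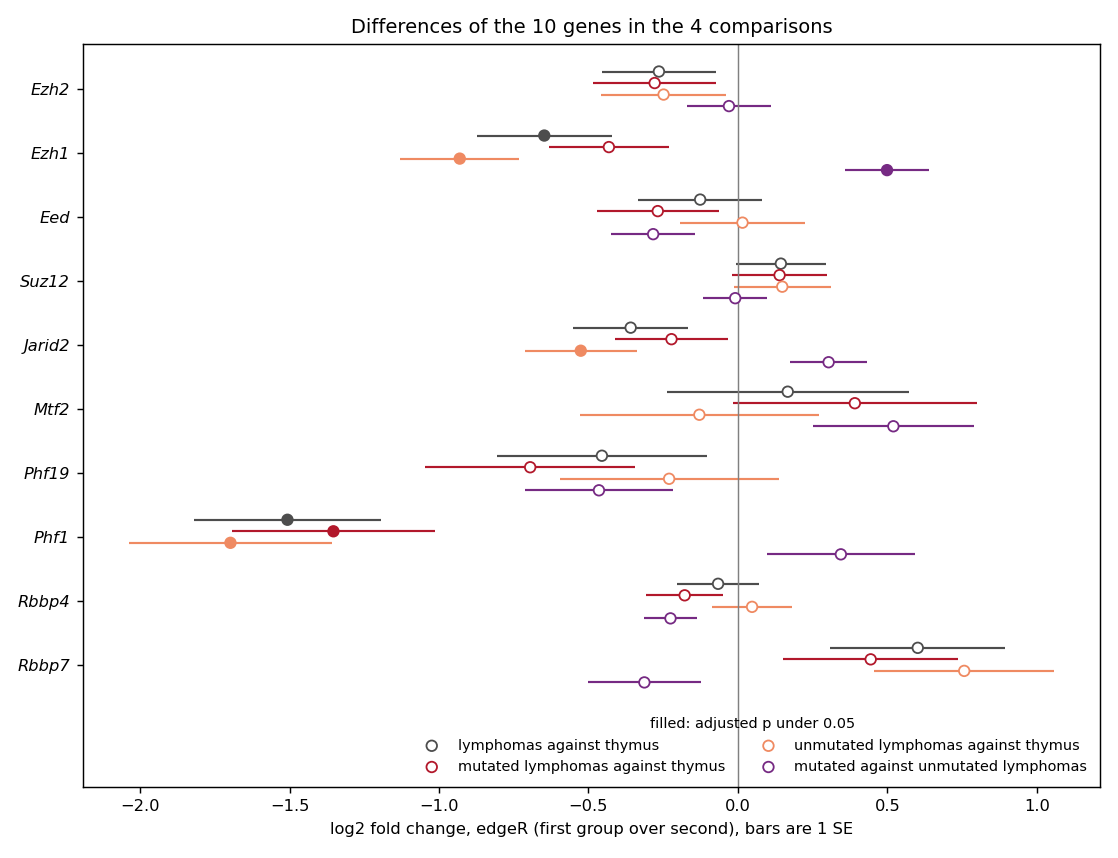
Log2 fold change (horizontal axis, bars 1 SE) of each PRC2 gene in the 4 comparisons, with filled points where the adjusted p was under 0.05. Filled points are Phf1 at -1.51, -1.35 and -1.70 and Ezh1 at -0.65 and -0.93 against thymus, Jarid2 at -0.53 in the unmutated set, and Ezh1 at 0.50 between the sets.

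Over all 21 lymphomas the catalytic pair went with the level of mitosis genes in opposite directions. The mitosis index was the mean log2(scaled CPM + 1) of 26 genes, and 4 relations were computed and adjusted together. Ezh2 rose with the index over 21 lymphomas (Pearson r = 0.56, permutation p = 0.012, adjusted p = 0.024; Spearman rho = 0.55, permutation p = 0.011, adjusted p = 0.022). Ezh1 fell with it (r = -0.65, permutation p = 0.0014, adjusted p = 0.0058; rho = -0.66, permutation p = 0.0016, adjusted p = 0.0063). Without lymphomas 7 and 16, the farthest from the median of the index, r was 0.32 for Ezh2 and -0.39 for Ezh1 (permutation p = 0.185 and 0.101, adjusted p = 0.370 for both), and rho was 0.45 and -0.54 (permutation p = 0.058 and 0.019, adjusted p = 0.116 and 0.075). Over all lymphomas neither relation was past the threshold after adjustment without those samples. Without lymphoma 7 alone, an alternative added after seeing the data, r was 0.37 and -0.47 (permutation adjusted p = 0.204 and 0.142), and rho was 0.50 and -0.61 (permutation adjusted p = 0.054 and 0.023). The rank relation of Ezh1 was thus past the threshold without lymphoma 7, and that of Ezh2 was not. On log2(TPM + 1) r was 0.54 and -0.50 (permutation adjusted p = 0.044 for both), while rho was 0.46 and -0.42 (permutation adjusted p = 0.119 for both).

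The relations were also computed within each set. In the 11 mutated lymphomas r was 0.92 for Ezh2 (permutation adjusted p = 0.00080) and -0.89 for Ezh1 (permutation adjusted p = 0.0012). Without lymphoma 7 these were 0.84 and -0.74 (permutation adjusted p = 0.012 and 0.033). In the 10 unmutated lymphomas r was 0.28 and 0.07 (permutation adjusted p = 0.584 and 0.853). Whether the relations differ between the sets was not tested. Ezh2 and Ezh1 were not related to each other over all lymphomas (r = -0.08, rho = -0.21, permutation adjusted p = 0.745 and 0.479), and gave r = -0.77 in the mutated set (permutation adjusted p = 0.010), -0.50 there without lymphoma 7 (permutation adjusted p = 0.181) and 0.49, of the opposite sign, in the unmutated set (permutation adjusted p = 0.584). Eed and Suz12 gave r = -0.13 and rho = -0.02 (permutation adjusted p = 0.745 and 0.916), and r = -0.12 without lymphomas 7 and 18.

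**Figure D4:**
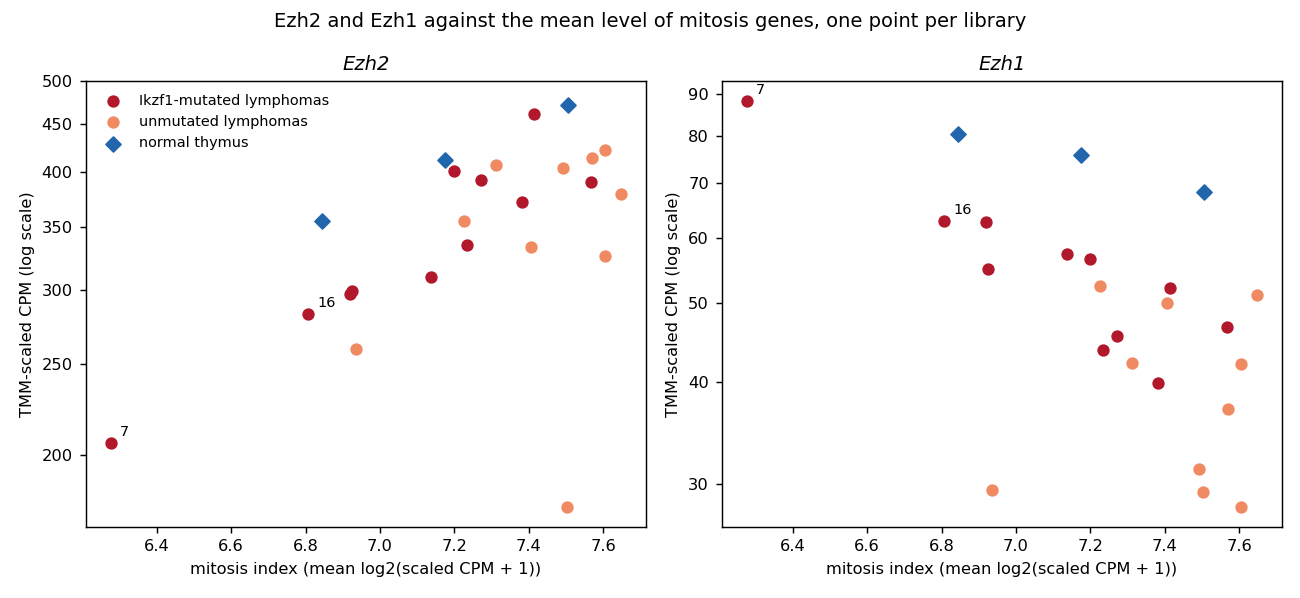
Ezh2 (left) and Ezh1 (right) as TMM-scaled CPM on a log axis against the mitosis index (mean log2(scaled CPM + 1)) for each lymphoma and thymus library, with lymphomas 7 and 16 numbered. In the mutated set Ezh2 rises and Ezh1 falls along the index (r = 0.92 and -0.89), while lymphoma 7 sits alone at an index of 6.28.

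Among 8872 genes with a mean of at least 10 scaled CPM, those most like Ezh1 over the 21 lymphomas were Fam134c (now Retreg3, Pearson r = 0.90 on log2 values), Cmtm6 (0.90), Sfxn3 (0.90), Tprgl (0.88) and Trim12a (0.88). Fam134c lies 71.3 kb from Ezh1 on chromosome 11, and the others on chromosomes 9, 19, 4 and 7. All 5 had a lower mean in lymphomas than in thymus, for Trim12a 13.4 ± 5.1 scaled CPM in lymphomas (SD, n = 21) and 52.7 ± 8.4 in thymus (SD, n = 3). For Ezh2 the likeness was weaker: Gabpb1 (0.77), Clec2i (0.73), Cdc7 (0.72), Acp5 (0.71) and Srsf4 (0.69). Of these, Cdc7 had a higher mean in lymphomas (87.2 scaled CPM, against 75.6 in thymus). The others had a lower one: Gabpb1 87 against 121, Clec2i 66.3 against 88.7, Acp5 98.5 against 157 and Srsf4 191 against 206. A lower mean was thus not particular to the genes most like Ezh1. The correlations describe 21 libraries that share normalization and cell composition, and none of these values carries a test.

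The genes around each PRC2 gene were compared with it, as log2 ratio to the thymus mean, to see where a whole stretch of the chromosome moved. Within 5 Mb of Ezh2 the median of 51 tested genes was -0.55 (-0.96 to 0.02 across lymphomas), and -0.33 for the 43 that are not members of the Gimap family, whose 8 tested genes lie in that stretch. Around Ezh1 (177 genes) the median ran from -0.24 to 0.08 across lymphomas, and around Phf1 (165 genes) from -0.22 to 0.03, while the genes themselves reached -1.40 and -2.21. The neighbours of Mtf2 (74 genes) likewise stayed between -0.27 and 0.11 while Mtf2 ran from -1.09 to 1.23. Around Jarid2 (46 genes) the median was below 0 in every lymphoma, from -0.51 to -0.06, with Jarid2 itself from -1.16 to 0.18. Around Phf19 (118 genes) it ran from -0.07 to 0.46, highest in lymphoma 16, with Phf19 from -2.52 to 0.18.

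The neighbours of Rbbp7 and Eed also moved in single lymphomas. In lymphoma 2 the 29 genes around Rbbp7 had a median of 0.87, with Rbbp7 itself at 1.09. In lymphoma 34 they had 0.69, with Rbbp7 at 1.89. In the other 19 lymphomas the neighbours lay between -0.34 and 0.28. In lymphoma 10 the 16 genes around Eed had a median of -0.66, with Eed at -1.05, whereas in lymphomas 14 and 34 Eed was at -0.95 and -0.72 with neighbours at -0.25 and -0.08. Chromosome copy number was not measured, and its part was not tested.

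**Figure D5:**
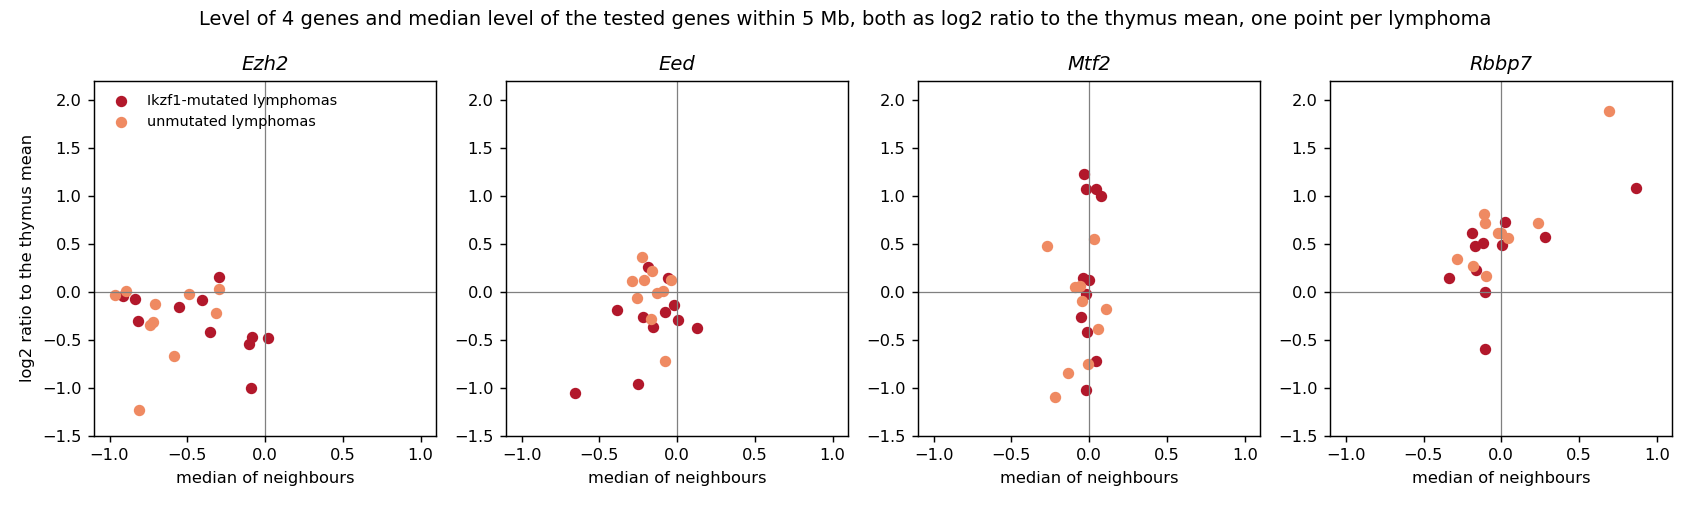
For Ezh2, Eed, Mtf2 and Rbbp7, the gene's log2 ratio to the thymus mean (vertical axis) against the median log2 ratio of tested genes within 5 Mb (horizontal axis), one point per lymphoma, coloured by set. Mtf2 spreads from -1.09 to 1.23 with its neighbours near 0, while 2 lymphomas have Rbbp7 neighbours at 0.69 and 0.87.

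Other lists of genes around PRC2 are given beside the shares over all tested genes in lymphomas against thymus, 15.4% higher and 15.4% lower. Of 4 tested further accessory genes of PRC2, 2 were higher in lymphomas. E130012A19Rik (now Epop, a Polycomb partner in the Polycomb-like assembly) had 20 ± 10 scaled CPM in lymphomas (SD, n = 21) and 5.01 ± 0.27 in thymus (SD, n = 3), a log2 fold change of 2.00 (adjusted p = 0.0043, edgeR). Aebp2, the partner of Jarid2 in the other assembly, was at 0.47 (adjusted p = 0.023). With limma on TPM 1 of the 4 was higher.

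Of 21 tested genes of Polycomb repressive complex 1, the partner complex that ubiquitinates histone H2A, 3 were higher and 4 lower, a share near the 30.8% called over all tested genes, with a median log2 fold change of -0.11 against 0.07 over all genes. Pcgf2 and Bmi1, alternative partners of the Ring proteins, were higher at 3.56 and 1.17 (adjusted p = 0.00047 and 0.0027, edgeR). Bmi1 had 161 ± 49 scaled CPM in lymphomas (SD, n = 21) and 71.3 ± 13.1 in thymus (SD, n = 3). Cbx8, which reads the mark made by PRC2, was lower at -0.85 (adjusted p = 0.0028).

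Of 13 demethylases and histone-modifying enzymes that act against PRC2, 5 were lower and none higher, where 15.4% of all tested genes were lower and 15.4% higher, and the median was -0.25. Crebbp, which acetylates the same lysine, was at -0.98 (68.7 ± 20 scaled CPM in lymphomas, SD, n = 21, against 136 ± 14 in thymus, SD, n = 3, adjusted p = 0.0062, edgeR). Kdm6b, which removes the mark, was at -0.75 (adjusted p = 0.0065), Whsc1l1 (now Nsd3) at -0.51 (adjusted p = 0.0074) and Kmt2b at -0.38 (adjusted p = 0.035). With no filter on low counts 3 of the 13 were lower. In the other complexes that hold Rbbp4 and Rbbp7, 4 of 17 genes were higher and 2 lower (30.8% of all tested genes were called), with Sin3b at -0.91, Gatad2a at 0.37, Sap18 at 0.58 and Mta1 at 1.00 (adjusted p from 8.2e-05 to 0.022). The count of lower genes was 1 with upper-quartile scaling and with no filter on low counts. Among 12 subunits of SWI/SNF, the remodeller that opposes Polycomb, 1 was higher (Smarcc1, 0.61) and 3 lower (Smarcd2 at -0.78, Smarca4 at -0.50 and Arid1b at -0.45, adjusted p up to 0.012), again a share near the 30.8% of all tested genes.

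Of 36 genes known as PRC2 targets, 18 passed the filter on low counts. Of these 18, 2 were higher and 4 lower in lymphomas, a share near the 30.8% called over all tested genes. Their median log2 fold change was 0.92, against 0.07 over all tested genes, and it was 0.99 in the mutated and 0.59 in the unmutated set. Hoxa7, Hoxa5 and Hoxa3, homeobox genes of 1 cluster, averaged 0.053 ± 0.110, 0.128 ± 0.276 and 0.077 ± 0.138 scaled CPM in lymphomas (SD, n = 21), against 3.56 ± 0.19, 2.28 ± 0.33 and 0.80 ± 0.07 in thymus (SD, n = 3) (log2 fold changes -5.87, -4.12 and -3.28; adjusted p up to 0.0014, edgeR). Sox4, a transcription factor of immature lymphoid cells, was at -0.65 (adjusted p = 0.013). Cdkn2a, a cell-cycle inhibitor locus long known as a Polycomb target, had 0.446 to 76.6 scaled CPM in lymphomas, against 0.118 to 0.323 in thymus, where it had 17 counts in all (6.42 on the log2 scale, SE 1.83, adjusted p = 0.010). Hoxb3 had 3 counts over the thymus libraries, and its scaled ratio of lymphomas to thymus was 50 (95% counting interval 17.1 to 243). The number of targets called higher was 5 with DESeq2 and 0 with limma-voom.

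Of 28 genes of DNA replication, 6 were higher and 1 lower in lymphomas, a share no larger than the 30.8% called over all tested genes, with a median log2 fold change of 0.49. E2f2 fell, at 195 ± 67 scaled CPM in lymphomas (SD, n = 21) and 613 ± 58 in thymus (SD, n = 3), a log2 fold change of -1.65 (adjusted p = 3.7e-05, edgeR). Rrm1, Mcm6 and Dnmt1 were higher at 0.77, 0.78 and 0.59 (adjusted p = 0.0085, 0.015 and 0.039). With limma on TPM 2 of the 28 were higher. Of the mitosis genes 1 of 26 was higher (Bub1b, 0.88, adjusted p = 0.027).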

How the data were processed

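The deposited tables used were raw counts of whole reads by symbol in 24 libraries, with no scaling, and TPM, which the authors scaled for transcript length. The submitters' processing notes name edgeR, SAMtools, HTSeq 0.6.1, HISAT2 2.0.1, cutadapt 1.9.1 and build GRCm38.p6. Their settings, including strand, were not given in those notes. The 11 mutated and 10 unmutated lymphomas were read from the columns of the authors' filtered count tables, whose counts equal those of the full table in 100% of cells. One more deposited table, with CPM of lymphomas picked for their Grb10, stayed out. The labels give 1 batch date for all libraries. No pair of libraries of a group agreed within sampling noise (chi-square per degree of freedom 51.6 to 358 between lymphomas of a set and 10.1 to 35.8 between thymus libraries).

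The test on counts was that of edgeR 4.0.16 in R 4.3.3 (TMM, filterByExpr, glmQLFit, glmQLFTest) and Benjamini-Hochberg adjustment over 13121 genes, with a threshold of 0.05. Lymphomas against thymus had a model with 2 groups; the 3 comparisons of the sets came from a model with 3 groups. SE is the log2 fold change divided by the root of F, and intervals of differences are approximate, from that SE. Tested on simulated data (200 genes altered), the lymphoma and thymus comparison recovered 38% at 2-fold and 61% at 4-fold, with 2.94% of its calls false. Between the sets recovery was 54% and 82%, with 4.23% false. The simulated counts were drawn independently for each gene, with far fewer altered genes than the 4044 called over all lymphomas. These rates may therefore not carry over to the data. Two-sided permutation p-values of correlations used 100000 resamples. Ratios to the thymus mean added 0.5 to scaled CPM. Counting intervals cover counting error only. Alternatives were RLE and upper-quartile scaling, 2 other filters on low counts, DESeq2 1.42.0, limma-voom and limma 3.58.1 on log2 of the deposited TPM plus 1 or 0.1, and leaving out each library.

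The 10 genes and the other lists were chosen with earlier results of these data known. The text names all 10 genes, of each other list (cell type markers given as counts) up to 4 genes with the smallest p against thymus (targets up to 6), and the 5 genes most like Ezh1 and Ezh2. A gene that this rule also names is not reported here. Individual lymphomas and the overlapping genes were singled out after their values were seen. Positions, start regions and older symbols (for Epop, Nsd3 and others) came from RefSeq tables of the files' build, and overlaps from GENCODE M21.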

Additional observations from a re-analysis of the deposited data

Results flagged for a closer look

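Rbbp7 in lymphoma 34 stood far from the rest of the unmutated set. It had 1166 scaled CPM, while the other 9 unmutated lymphomas lay between 353 and 553. The gap to the nearest was 0.755 of the whole range, above the critical value of 0.466 for 10 samples; 12 quantities were checked this way, and chance flags about 1 in 20. The 29 tested genes within 5 Mb had a median log2 ratio to thymus of 0.69 in that library.

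Ezh1 differed between the sets, with a log2 fold change of 0.50 in mutated over unmutated lymphomas (adjusted p = 0.039, edgeR quasi-likelihood test of the contrast between the sets). The mutated set ran from 39.8 to 88.2 scaled CPM and the unmutated set from 28.2 to 52.4, so the ranges overlapped. The call held in 8 of the 21 fits that left out 1 lymphoma.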

How the results depend on the processing

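The falls of Phf1 over all lymphomas and of Phf1 and Ezh1 in the unmutated set, against thymus, kept their direction and their call under every other scaling, filter and tool run and under every left-out library. The other calls of Ezh1 and Jarid2 were lost in settings given above. With no filter on low counts 1 PRC2 gene passed over all lymphomas, and with limma-voom 0 passed between the sets (Ezh1 at adjusted p = 0.050). DESeq2 called 1276 genes between the sets, against 706 with edgeR. Leaving out single libraries gave 1929 to 4435 genes and 1 to 2 PRC2 genes over all lymphomas, 1441 to 3904 and 0 to 2 in the mutated set, 2856 to 4895 and 2 to 4 in the unmutated set, and 301 to 1221 and 0 to 1 between the sets, where the highest count came without lymphoma 31, the lowest without lymphoma 34, and 409 to 447 without lymphoma 17, 18, 22, 30 or 35. The lowest counts against thymus came with a thymus library left out, which leaves 2 in that group.

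Estimates near 0 changed sign without passing in any setting. Mtf2 over all lymphomas was -0.00018 with limma-voom, -0.077 with limma on log2(TPM + 1) and -0.080 with log2(TPM + 0.1). Eed in the unmutated set was -0.013, -0.15 and -0.15 in the same order, and -0.032 to 0.089 with libraries left out. Rbbp4 there was -0.10 on both TPM scales. Between the sets Suz12 was 0.0063 with no filter and 0.10 on both TPM scales (-0.051 to 0.040 with libraries left out), and Ezh2 0.092 on both (-0.10 to 0.034). The share of calls that were higher in all lymphomas was 50% in edgeR, 37.5% with limma-voom and 35.4 and 37.9% on the TPM scales; in the mutated set it was 50.2% in edgeR, 36.3% with limma-voom and 39.2% on log2(TPM + 1), in the unmutated set 51%, 41.2% and 32.4%, and between the sets 45.2% in edgeR and 79.4 and 78.5% on the TPM scales. The median of all tested genes over all lymphomas was 0.07 in edgeR and -0.10 with log2(TPM + 0.1).

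Ezh2 with the mitosis index gave r = 0.32 without the 2 farthest lymphomas, 0.28 in the unmutated set and 0.37 to 0.84 without lymphoma 7 (all lymphomas and the mutated set). Ezh1 with it gave -0.39, 0.073 and -0.74 to -0.47. Ezh2 with Ezh1 gave 0.043 on log2(TPM + 1), 0.21 without the 2 farthest lymphomas, -0.77 in the mutated set, 0.49 in the unmutated set and -0.50 to 0.22 without lymphoma 7. On log2(TPM + 1) the relations of Ezh2 and Ezh1 with the index had r = 0.54 and -0.50, and their rank calls were lost. The cause of these changes was not tested. Phf1 with Ezh1, a relation chosen after their values were seen, gave r = 0.67 and rho = 0.53 over 21 lymphomas (permutation p = 0.00080 and 0.016) and r = 0.44 without lymphomas 7 and 22 (permutation p = 0.060). No paired analysis was run, because no label ties a lymphoma to a thymus sample.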
